A study of Mus musculus with 7 samples.

Results

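The cytosolic ribosomal protein genes were described in SMB21 cells, a mouse medulloblastoma line grown as neurospheres, after CRISPR targeting of the cilium genes Ofd1 or Kif3a. Members were all genes of the count table whose symbol is Rpl or Rps followed by a digit, together with Rplp0, Rplp1, Rplp2 and Rpsa. Ribosomal S6 kinases, symbols carrying "-ps", Rps19bp1 and Rpl7l1 were left out. This gave 85 of 24047 genes: 31 of the small (40S) subunit, 46 of the large (60S) subunit and 8 paralogues of core genes. Ofd1 CRISPR cells (3 libraries) and Kif3a CRISPR cells (2 libraries) were set against GFP control cells (2 libraries), in which the guide was directed at GFP. All 7 libraries came from the same Ptch1-mutant line (strain background Ptch1tm1Mps/J), infected with lentivirus that delivers Cas9 together with the guide, with RNA taken 2 weeks after infection. The 5 Ofd1 CRISPR and Kif3a CRISPR libraries together are called the cilium-guide libraries. Guide sequences, and whether clones or pooled cells were sequenced, were not given in the sources used here. The 2 GFP control libraries analysed here are fewer than the 3 that the series text mentions. The labels call the replicates biological.

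A ribosome consists of ribosomal RNA and a set of small basic proteins, most of them present once in each particle, so their genes are transcribed at matched levels in growing cells. Their mRNAs start with a run of pyrimidines, the TOP tract, through which mTORC1 and the RNA-binding protein LARP1 govern their translation. Myc proteins are known to raise transcription of the same genes, and Mycn is a Hedgehog target in granule neuron progenitors, the cells from which this tumour type arises. Both targeted genes serve the primary cilium, the organelle through which Hedgehog signals pass: Ofd1 is a basal body protein and Kif3a a subunit of the kinesin-2 motor. Poly-A RNA was sequenced, so the values are mRNA levels and say nothing of translation.

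Sequences around the annotated start sites are shown for the 6 ribosomal protein genes that were lower than GFP control in both comparisons below, because the pyrimidine tract lies at that start. Each line gives 60 bases before and 20 bases from the start, 5′ to 3′ on the gene's own strand, from RefSeq on GRCm38.p6; capitals mark the longest pyrimidine run within 20 bases of the start. The windows lie at chr7:4792905-4792984 (plus strand) for Rpl28, chr9:64173327-64173406 (plus) for Rpl4, chr5:107900468-107900547 (plus) for Rpl5, chrX:37085203-37085282 (minus) for Rpl39, chr4:86857348-86857427 (minus) for Rps6 and chr11:97782420-97782499 (minus) for Rpl23.
Rpl28: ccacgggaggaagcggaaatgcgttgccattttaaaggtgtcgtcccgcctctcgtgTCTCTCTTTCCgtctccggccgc
Rpl4: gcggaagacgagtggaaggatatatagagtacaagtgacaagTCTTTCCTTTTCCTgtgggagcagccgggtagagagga
Rpl5: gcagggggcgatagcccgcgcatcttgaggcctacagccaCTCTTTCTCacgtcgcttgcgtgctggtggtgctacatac
Rpl39: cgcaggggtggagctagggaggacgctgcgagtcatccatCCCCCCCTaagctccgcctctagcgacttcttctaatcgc
Rps6: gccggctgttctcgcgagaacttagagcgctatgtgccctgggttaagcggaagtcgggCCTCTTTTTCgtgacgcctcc
Rpl23: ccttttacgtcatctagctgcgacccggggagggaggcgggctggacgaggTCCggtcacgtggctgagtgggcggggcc

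The run was 11 bases long in Rpl28, 14 in Rpl4, 9 in Rpl5, 8 in Rpl39, 10 in Rps6 and 3 in Rpl23. The runs of Rpl28 and Rps6 span the annotated start. Those of Rpl4, Rpl5, Rpl39 and Rpl23 lie wholly before it, outside the annotated mRNA. The Rpl39 run begins at the edge of the search, and the base before it is also a pyrimidine. Whether any of these runs is the TOP tract of its mRNA was not tested. A start-site sequence was matched for 64 of the 85 genes. Of these 64, 28 (43.8%) held a run of at least 8 pyrimidines on the gene's own strand within 20 bases of the start. Runs before the start counted as well, and the share among 27025 mouse promoters was 15.9%. The letters CCGGAAG, searched on both strands from 250 bases before to 50 after the start, were present in 39.1% of the 64 and in 9.12% of all promoters. For TATAAA the shares were 9.38% and 14.2%, and for AAGATGGC 6.25% and 2.88%. These are counts of letters in a window and not sites of binding.

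Library totals ran from 17961767 to 23022701 counts. The targeted genes were checked first. Kif3a stood at 73.95 and 60.5 CPM (counts relative to library size, scaled with TMM factors) in Kif3a CRISPR libraries, against 104 CPM in both GFP control libraries, a log2 fold change of -0.63 ± 0.09 (SE; adjusted p = 0.000855, edgeR). Ofd1 stood at 20.99, 20.03 and 22 CPM in Ofd1 CRISPR libraries, against 22.6 and 23.2 CPM in GFP control libraries (log2 fold change -0.12 ± 0.09, adjusted p = 0.398), so its mRNA level did not check that label, and an edit that leaves the mRNA in place would not show there. Ofd1 mRNA was higher in Kif3a CRISPR libraries, at 31.7 and 29.0 CPM (log2 fold change over GFP control 0.41 ± 0.10, adjusted p = 0.0126, edgeR), and lower in Ofd1 CRISPR than in Kif3a CRISPR cells (-0.53 ± 0.09, adjusted p = 0.0399). Of 19 markers of granule progenitors and medulloblastoma, 18 were tested, and 7 rose (38.9%) and 4 fell (22.2%) under each guide. Over all tested genes, 6.79% rose and 8.09% fell in Ofd1 CRISPR cells, and 9.19% rose and 10.9% fell in Kif3a CRISPR cells. Of 18 myeloid markers, 4 passed the filter on low counts, and none was called in Ofd1 CRISPR cells and 2 were lower in Kif3a CRISPR cells. The myeloid markers summed to 20.55 to 27.6 CPM in Ofd1 CRISPR and 19.8 to 20.5 CPM in Kif3a CRISPR libraries, against 58.1 CPM in GFP control 1 and 27.4 CPM in GFP control 2. GFP control 1 held 121 counts of Lyz2 and 152 of Ctss where GFP control 2 held 0 of each, and Cx3cr1 was at 0 in all 7 libraries, so GFP control 1 stood apart in these markers. Of 7 tested signs of RNA quality, 1 was lower under each guide, and their sums of 1942 to 2757 CPM in Ofd1 CRISPR and 2027 to 2422 CPM in Kif3a CRISPR libraries overlapped the 2135 to 2294 CPM of GFP control. Most of each sum was Rn45s, a ribosomal RNA entry, at 1721 to 2387 CPM in Ofd1 CRISPR libraries, so the sums say little of the other signs. Malat1 stood at 326.9, 176.5 and 142.8 CPM in Ofd1 CRISPR and 228.9 and 252.6 CPM in Kif3a CRISPR libraries, against 198.6 and 204.6 CPM in GFP control libraries.

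The share of counts from ribosomal protein genes was below both controls in 3 of the 5 cilium-guide libraries and within the control range in the other 2. The 85 genes took 3.795%, 3.89% and 4.17% of all counts in Ofd1 CRISPR libraries, and 3.63% and 4.18% in Kif3a CRISPR libraries, against 4.31% and 4.11% in GFP control libraries. Ofd1 CRISPR 3 and Kif3a CRISPR 2 lay within the control range, whereas Ofd1 CRISPR 1 and 2 and Kif3a CRISPR 1 lay below it. The 95% Wilson interval of each share was no wider than ± 0.0091 percentage points, which covers counting error only, so the spread between libraries of a group was larger than counting error. The means were 3.95% ± 0.20 (SD, n = 3) in Ofd1 CRISPR cells and 3.90% ± 0.39 (SD, n = 2) in Kif3a CRISPR cells, against 4.21% ± 0.15 (SD, n = 2) in GFP control cells, and the groups overlapped (exact permutation test over libraries, 2-sided p = 0.4 for Ofd1 and p = 0.667 for Kif3a). In bulk RNA, fewer cells of a type and less RNA per cell cannot be told apart.

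After scaling with TMM factors, the summed level was 37434, 38874 and 41423 CPM in Ofd1 CRISPR libraries and 36084 and 41578 CPM in Kif3a CRISPR libraries, against 43855 and 41776 CPM in GFP control libraries. On this scale the groups did not overlap, but the gap between Kif3a CRISPR 2 and GFP control 2 was smaller than that between the Kif3a CRISPR libraries. The exact permutation test gave the smallest 2-sided p that these group sizes allow, 0.2 for Ofd1 and 0.333 for Kif3a, so it cannot pass 0.05. Against the control mean, the median tested ribosomal protein gene stood at a log2 difference of -0.18, -0.13 and -0.05 in Ofd1 CRISPR libraries and -0.24 and -0.02 in Kif3a CRISPR libraries, while the control libraries stood at 0.03 and -0.03.

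The balance between the subunits was lower in all 5 cilium-guide libraries than in both controls. Counts of 60S genes over counts of 40S genes gave a ratio of 1.331, 1.329 and 1.335 in Ofd1 CRISPR libraries and 1.331 in both Kif3a CRISPR libraries, against 1.373 and 1.393 in GFP control libraries. The 5 cilium-guide libraries lay close together, although their totals differed. The means were 1.331 ± 0.003 (SD, n = 3) in Ofd1 CRISPR and 1.331 ± 0.0001 (SD, n = 2) in Kif3a CRISPR cells, against 1.383 ± 0.014 (SD, n = 2) in GFP control cells. Without the 5 most abundant genes of each subunit, the ratio was 1.281 to 1.305 in Ofd1 CRISPR and 1.284 to 1.286 in Kif3a CRISPR libraries, against 1.321 to 1.328 in GFP control libraries, with no overlap but a smaller gap. Each of these differences had the smallest possible exact permutation p, 0.2 for Ofd1 and 0.333 for Kif3a.

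**Figure D1:**
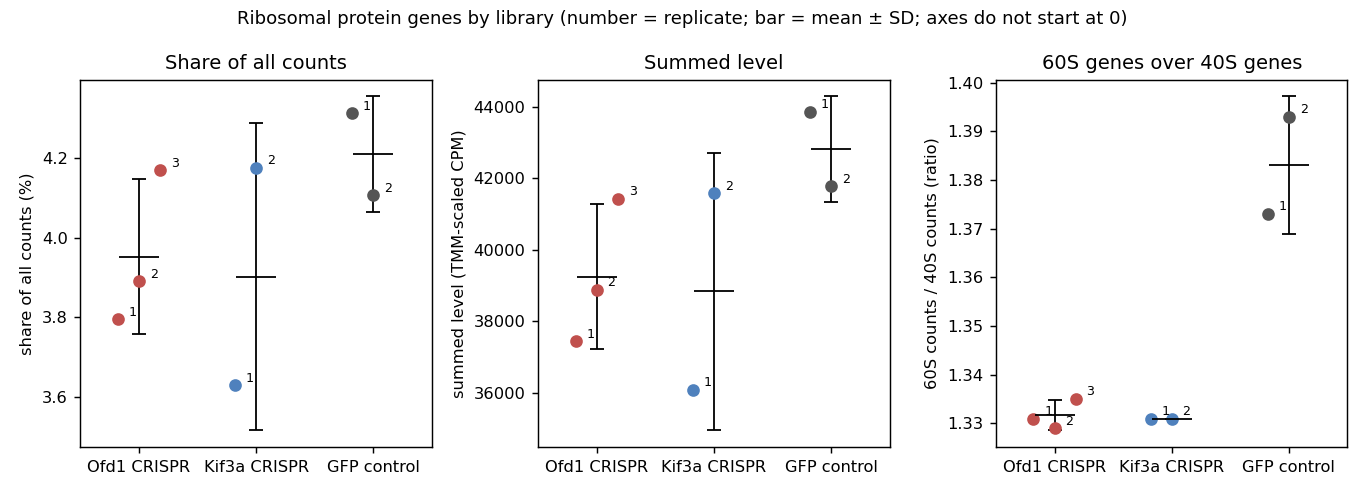
Ribosomal protein genes in each library (points, numbered by replicate) with the group mean and SD: share of all counts in percent (left), summed TMM-scaled CPM (middle) and the ratio of 60S to 40S counts (right); the axes do not start at 0. The shares of Ofd1 CRISPR 3 (4.17%) and Kif3a CRISPR 2 (4.18%) lie within the GFP control range of 4.11% to 4.31%, while all 5 cilium-guide libraries lie at 1.329 to 1.335 in the ratio, below the 1.373 and 1.393 of the controls.

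Levels of single genes were compared per kilobase of coding length in the GFP control cells. Rpl41 stood highest at 7867 CPM per kb, followed by Rps29 at 5822 CPM per kb and the stalk gene Rplp1 at 4672 CPM per kb, whereas Rpl39, also among the shortest, stood at 903 CPM per kb. Parts of a transcript outside the coding part also yield reads, which weighs most for short coding parts. Rpl4 stood at 1432 and Rpl5 at 569 CPM per kb. At the low end, Rpl34 was at 7.42, Rps27 at 7.80 and Rpl30 at 4.20 CPM per kb, and Rpl26 had 0 counts in all 7 libraries. These 4 encode core proteins of the ribosome. Copies of ribosomal protein genes elsewhere in the genome share their sequence: 24 genes had every coding window of 75 bases, the read length, in the transcripts of another gene. The share was 100% for Rps27, 72.6% for Rpl30, 71.4% for Rpl26 and 60% for Rpl34, but also 100% for the abundant Rps29 and Rpl41. The coding part of Rpl41 has only 78 bases and so holds few such windows, and sharing outside coding parts was not examined. How the authors' counting treated shared reads was not given in the sources used here, and its part in the low counts was not tested.

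Among the 76 genes of at least 10 CPM on average, the 17 with under 50% of windows shared had a median of 1789 CPM per kb in GFP control cells, the 37 with at least 50% but not all of them a median of 1010 CPM per kb and the 22 with 100% a median of 744 CPM per kb. Across these 76 genes the shared percentage and the level had a Spearman rho of -0.43 (Pearson r -0.32), as a description, since the genes come from the same libraries and differ in length. The shared percentage had a rho of only 0.04 with the log2 fold change in Ofd1 CRISPR cells and 0.06 with that in Kif3a CRISPR cells.

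**Figure D2:**
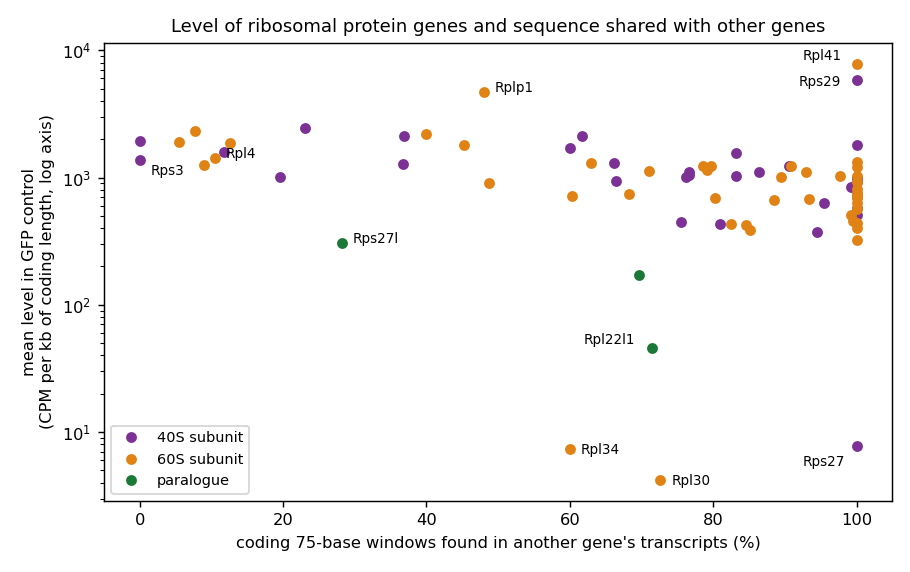
Mean level in GFP control cells, in CPM per kilobase of coding length on a log axis, against the percentage of a gene's coding 75-base windows found in transcripts of another gene; each point is 1 ribosomal protein gene with any count there. The 3 core genes at the bottom, Rpl34, Rps27 and Rpl30, lie under 8 CPM per kb, far from the other core genes.

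In Ofd1 CRISPR against GFP control cells, 6 ribosomal protein genes fell and 0 rose, while most others lay slightly below the control without passing the test. Those that fell were the 60S genes Rpl28, Rpl4, Rpl5, Rpl39 and Rpl23 and the 40S gene Rps6, with log2 fold changes of -0.23 to -0.37. Calls are those of edgeR's quasi-likelihood test, with p-values adjusted by the Benjamini-Hochberg method across 12875 genes and a threshold of 0.05. The 6 are 7.59% of the 79 ribosomal protein genes tested, and 8.09% of all tested genes were called lower (6.79% higher, 14.9% in either direction), so in this fit the members' share of lower calls was near the background. In other fits it lay on either side of it. With RLE factors the share was 7.59%, against 8.32% of all genes, and with library totals alone 3.8%, against 6.62%. Leaving out 1 Ofd1 CRISPR library moved it to either side, as given below. By DESeq2, 17 of 79 (21.5%) were lower, against 7.83% of all genes, and 0 were higher. With trends in length and GC content removed 17 (21.5%) were lower, against 10.2% of all genes.

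In Kif3a CRISPR against GFP control cells, the same 6 genes were among 13 that fell, and 1, Rpl30, rose. The other 7 that fell were Rps15, Rps14, Rps10, Rps4x, Rps26, Rpl13 and Rpl35a, the last 3 listed after their values were seen. The lower calls were 16.5% of the 79 tested, against 10.9% of all tested genes called lower, 9.19% called higher and 20.1% called in either direction. By DESeq2, 19 (24.1%) were lower, against 9.48% of all genes, and 0 higher. Both comparisons use the same GFP control libraries, so their values are given side by side and not as independent evidence of each other.

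The shift below 0 was small and broad. The median log2 fold change over the 79 genes was -0.11 in Ofd1 CRISPR and -0.12 in Kif3a CRISPR cells, where the median over all tested genes was 0.003 and 0.008. In Ofd1 CRISPR cells, 70 of 79 (88.6%) had a negative log2 fold change, as had 49.5% of all tested genes; in Kif3a CRISPR cells it was 68 of 79 (86.1%), as had 48.7% of all tested genes. Genes lying below both controls in every library numbered 37 of 79 (46.8%) in Ofd1 CRISPR cells, against 25% of all tested genes, and 34 of 79 (43%) in Kif3a CRISPR cells, against 32.4% of all. In all 5 cilium-guide libraries together, 29 of 79 (36.7%) lay below both controls and 1, Rpl30, above, against 20.7% and 20.6% of all tested genes. Unadjusted p was under 0.05 for 24 of 79 (30.4%) in Ofd1 CRISPR cells, near the 30.9% of all tested genes, and for 25 of 79 (31.6%) in Kif3a CRISPR cells, near the 33.9% of all.

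The number of calls depended on single libraries, for these genes and for all genes. Without GFP control 1, the library with the myeloid counts, the lower calls of ribosomal protein genes were lost in both comparisons, and the medians were -0.09 in both. Without GFP control 2 most of these calls were lost, but the medians were -0.15 in Ofd1 CRISPR and -0.17 in Kif3a CRISPR cells, and 73 of 79 were below 0 in both. In the fit without Ofd1 CRISPR 1, 2 of 79 (2.53%) were lower in Ofd1 CRISPR cells, against 5.7% of all tested genes. In the fit without Ofd1 CRISPR 2 it was 1 (1.27%), against 5.83%. In the fit without Ofd1 CRISPR 3, which lay nearest to the controls, it was 20 (25.3%), against 11.8%. Without Kif3a CRISPR 1 the lower calls in Kif3a CRISPR cells were lost, 43 of 79 had a negative log2 fold change and the median was -0.02. Without Kif3a CRISPR 2 the median was -0.24. The part of the myeloid counts in these results was not tested.

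**Figure D3:**
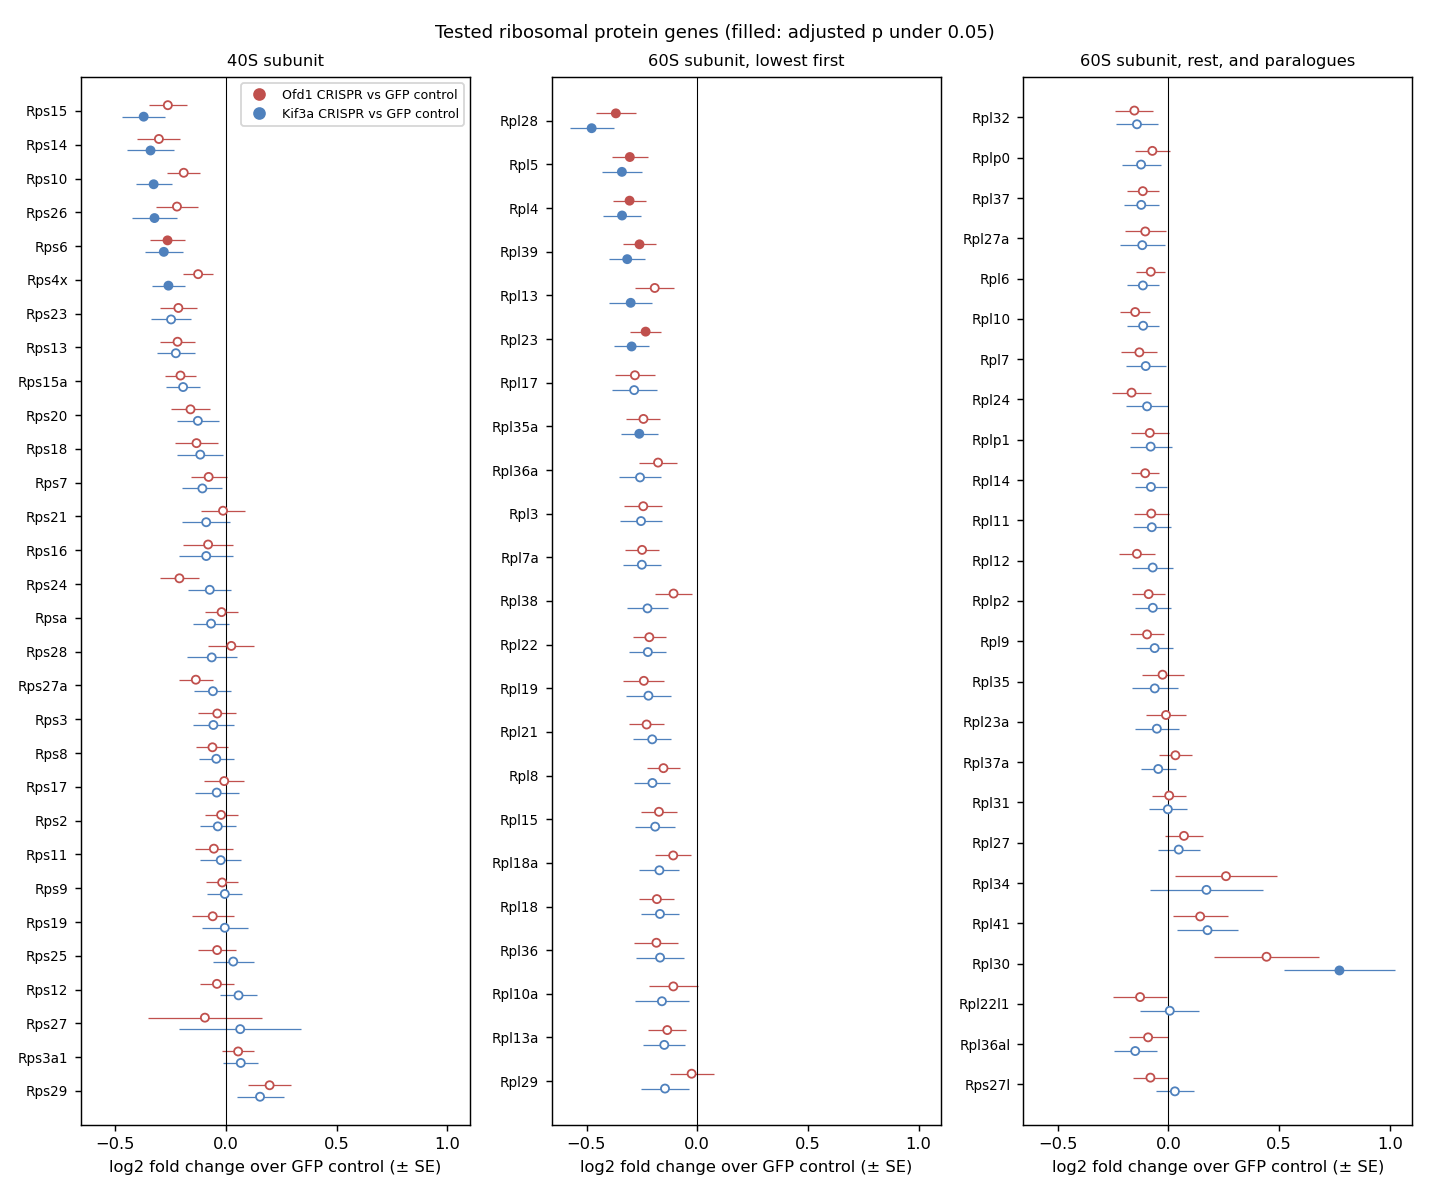
Log2 fold change over GFP control (points, with SE) for 78 of the 79 tested ribosomal protein genes in Ofd1 CRISPR (upper, red) and Kif3a CRISPR cells (lower, blue), split by subunit and ordered by the Kif3a CRISPR value; filled points have an adjusted p under 0.05. Most points lie left of 0, with 6 filled red and 14 filled blue, of which Rpl30 alone lies to the right.

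Rpl28, a 60S surface protein specific to eukaryotes, had the largest decrease in both comparisons. It stood at 309, 340.0 and 339 CPM in Ofd1 CRISPR libraries and 275 and 336 CPM in Kif3a CRISPR libraries, against 448 and 401.4 CPM in GFP control libraries. All 5 cilium-guide libraries lay below both controls. The log2 fold change was -0.37 ± 0.09 (SE; adjusted p = 0.0190) in Ofd1 CRISPR and -0.48 ± 0.10 (adjusted p = 0.00641) in Kif3a CRISPR cells, by edgeR. In Ofd1 CRISPR cells the call was kept in 6 of 7 fits that each left out 1 library and lost without GFP control 1 (adjusted p = 0.201); in Kif3a CRISPR cells it was kept in 5 of 7 and lost without GFP control 1 (adjusted p = 0.0748) or Kif3a CRISPR 1 (adjusted p = 0.102). The coding windows of Rpl28 are 100% shared with other genes' transcripts. A read wholly inside its coding part therefore cannot be told from a read of a copy. Reads reaching outside the coding part were not examined for sharing.

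Rpl4 and Rpl39 line the tunnel through which the growing peptide leaves the ribosome. Rpl4, with 10.46% of its windows shared, stood at 1367, 1445 and 1567 CPM in Ofd1 CRISPR and 1359 and 1492 CPM in Kif3a CRISPR libraries, against 1809 and 1799 CPM in GFP control libraries. The controls agreed closely and all 5 cilium-guide libraries were lower, Ofd1 CRISPR 3 the least. Its log2 fold change was -0.31 ± 0.08 (adjusted p = 0.0204, edgeR) in Ofd1 CRISPR and -0.34 ± 0.08 (adjusted p = 0.0152) in Kif3a CRISPR cells, and each call was kept in 4 of 7 fits without a library, with log2 fold changes of -0.36 to -0.26 in Ofd1 CRISPR and -0.41 to -0.27 in Kif3a CRISPR cells. Rpl39 stood at 116, 110.2 and 126 CPM in Ofd1 CRISPR and 109 and 117.5 CPM in Kif3a CRISPR libraries, against 137 and 145 CPM in GFP control libraries, again with no overlap (log2 fold change -0.26 ± 0.07 and -0.32 ± 0.08, adjusted p = 0.0364 and 0.0189, edgeR). The Rpl39 call was kept in 1 of 7 fits without a library in Ofd1 CRISPR and in 4 of 7 in Kif3a CRISPR cells. Its log2 fold changes there were -0.314 to -0.215 and -0.373 to -0.255. Of 7 tested proteins around the tunnel and its exit, these 2 (28.6%) were lower in each comparison and none was higher. Over all tested genes, 8.09% were lower in Ofd1 CRISPR and 10.9% in Kif3a CRISPR cells. The medians of the 7 were -0.24 in Ofd1 CRISPR and -0.22 in Kif3a CRISPR cells.

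Rpl5 and Rpl11 enter the 60S subunit together with 5S ribosomal RNA, and the same particle binds Mdm2 and restrains p53 turnover when assembly fails. Rpl5 stood at 383.5, 394 and 457 CPM in Ofd1 CRISPR and 384.5 and 419 CPM in Kif3a CRISPR libraries, against 511 and 506 CPM in GFP control libraries. Its log2 fold change was -0.30 ± 0.08 (adjusted p = 0.0285, edgeR) in Ofd1 CRISPR and -0.34 ± 0.09 (adjusted p = 0.0211) in Kif3a CRISPR cells. The Rpl5 call was kept in 3 of 7 fits without a library in Ofd1 CRISPR and in 4 of 7 in Kif3a CRISPR cells. Its log2 fold changes there were -0.386 to -0.254 and -0.404 to -0.274. Rpl11 stood at 358, 365 and 392 CPM in Ofd1 CRISPR and 342 and 403 CPM in Kif3a CRISPR libraries, against 389 and 395 CPM in GFP control libraries, so its groups overlapped (log2 fold change -0.08 ± 0.08 and -0.07 ± 0.09, adjusted p = 0.548 and 0.581, edgeR). The difference between the Rpl5 and Rpl11 changes was not tested, and every coding window of both genes is shared.

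Rps6 is the 40S protein phosphorylated by S6 kinases downstream of mTORC1. It stood at 334, 349 and 391 CPM in Ofd1 CRISPR and 336 and 372 CPM in Kif3a CRISPR libraries, against 429 and 431 CPM in GFP control libraries, all cilium-guide libraries below both controls. The log2 fold change was -0.26 ± 0.08 (adjusted p = 0.0440, edgeR) in Ofd1 CRISPR and -0.28 ± 0.09 (adjusted p = 0.0407) in Kif3a CRISPR cells, and the calls were kept in 1 and 2 of 7 fits without a library, with log2 fold changes of -0.33 to -0.22 in Ofd1 CRISPR and -0.36 to -0.20 in Kif3a CRISPR cells. Rpl23, a 60S protein that also binds Mdm2, stood at 429, 447 and 451 CPM in Ofd1 CRISPR and 399 and 448 CPM in Kif3a CRISPR libraries, against 532 and 508 CPM in GFP control libraries (log2 fold change -0.23 ± 0.07 and -0.30 ± 0.08, adjusted p = 0.0460 and 0.0199, edgeR). The Rpl23 call was kept in 3 of 7 fits without a library in Ofd1 CRISPR and in 4 of 7 in Kif3a CRISPR cells. Its log2 fold changes there were -0.265 to -0.198 and -0.384 to -0.208.

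The 40S genes Rps15, Rps14 and Rps10 passed the test in Kif3a CRISPR and not in Ofd1 CRISPR cells, but none of the 3 differed between the guides by the test. Rps15, which helps the small subunit leave the nucleus, stood at 868, 870.3 and 924.5 CPM in Ofd1 CRISPR and 741 and 906 CPM in Kif3a CRISPR libraries, against 1113 and 1018 CPM in GFP control libraries. Its log2 fold change was -0.26 ± 0.09 (adjusted p = 0.0632, edgeR) in Ofd1 CRISPR and -0.37 ± 0.10 (adjusted p = 0.0184) in Kif3a CRISPR cells. Rps14 is the gene whose lone remaining copy underlies the anaemia of the human 5q- syndrome. Its level was 724, 747 and 889.6 CPM in Ofd1 CRISPR and 703 and 831 CPM in Kif3a CRISPR libraries, against 965 and 978 CPM in GFP control libraries (log2 fold change -0.30 ± 0.10 and -0.34 ± 0.11, adjusted p = 0.0550 and 0.0422, edgeR). Rps10 stood at 178, 184 and 205 CPM in Ofd1 CRISPR and 167.5 and 176.5 CPM in Kif3a CRISPR libraries, against 210.3 and 221 CPM in GFP control libraries (log2 fold change -0.19 ± 0.07 and -0.33 ± 0.08, adjusted p = 0.102 and 0.0153, edgeR).

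**Figure D4:**
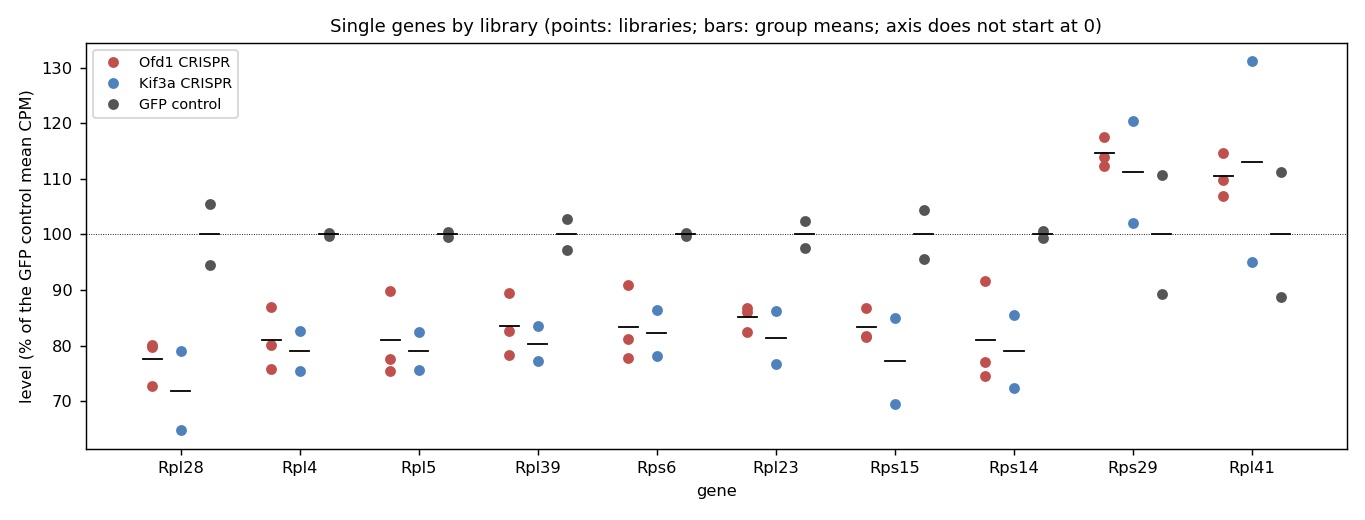
Level of 10 ribosomal protein genes in each library (points) as a percentage of the GFP control mean, with group means as bars, for Ofd1 CRISPR (left), Kif3a CRISPR (middle) and GFP control (right) at each gene; the axis does not start at 0. For the 8 genes from Rpl28 to Rps14 all cilium-guide libraries lie below both controls, whereas for Rps29 and Rpl41 the controls themselves lie far apart.

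The P stalk, which recruits elongation factors to the ribosome, showed no called change. Rplp0, its base, stood at 1896, 1982 and 2066 CPM in Ofd1 CRISPR and 1760 and 2065 CPM in Kif3a CRISPR libraries, against 2122 and 2043 CPM in GFP control libraries, with overlapping groups (log2 fold change -0.07 ± 0.08 and -0.12 ± 0.09, adjusted p = 0.582 and 0.350, edgeR). The stalk arms gave log2 fold changes of -0.08 ± 0.09 and -0.08 ± 0.10 for Rplp1 and of -0.09 ± 0.07 and -0.07 ± 0.08 for Rplp2 in Ofd1 CRISPR and Kif3a CRISPR cells, with adjusted p of 0.451 to 0.592. The 4 stalk genes had medians of -0.09 and -0.08, and 0 were called by edgeR in either comparison. Rpsa, the 40S protein first described as a laminin receptor precursor, stood at 1072, 1042 and 1104 CPM in Ofd1 CRISPR and 962.5 and 1113 CPM in Kif3a CRISPR libraries, against 1068 and 1108 CPM in GFP control libraries, and the groups overlapped.

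Among the other genes named in advance, Rps27a, Rps19, Rpl3, Rpl22, Rpl22l1 and Rps27l did not pass the test in either comparison. Rps27a, which is made as a fusion with ubiquitin, had log2 fold changes of -0.14 ± 0.08 in Ofd1 CRISPR and -0.06 ± 0.08 in Kif3a CRISPR cells. Rps19, the gene most often mutated in Diamond-Blackfan anaemia in humans, gave -0.06 ± 0.10 and -0.01 ± 0.10. Rpl3, at the peptidyl transferase centre, stood at 642, 666 and 785 CPM in Ofd1 CRISPR and 677 and 709 CPM in Kif3a CRISPR libraries, against 822 and 829.6 CPM in GFP control libraries, with no overlap but adjusted p of 0.0756 and 0.0779 (edgeR). Rpl22 and its paralogue Rpl22l1 regulate each other in mouse cells: Rpl22 gave -0.22 ± 0.08 in both comparisons (adjusted p = 0.0756 and 0.0802, edgeR), all cilium-guide libraries below the controls, and Rpl22l1 gave -0.13 ± 0.12 and 0.01 ± 0.13 with overlapping groups. Rps27l, a p53-inducible paralogue of Rps27, gave -0.08 ± 0.08 and 0.03 ± 0.09, and 0 of the 3 tested paralogues were called by edgeR or had an unadjusted p under 0.05.

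By subunit, 1 of 31 tested 40S genes (3.23%) was lower in Ofd1 CRISPR and 6 of 31 (19.4%) in Kif3a CRISPR cells, with medians of -0.08 and -0.07. Of 45 tested 60S genes, 5 (11.1%) were lower in Ofd1 CRISPR and 7 (15.6%) in Kif3a CRISPR cells, with medians of -0.14 and -0.15. Over all tested genes 8.09% and 10.9% were lower, and the subunits were not tested against each other. Since the whole set moved with the library, each gene of at least 10 CPM was also expressed relative to the geometric mean of the other 75, a scale chosen after these values were seen. On it, 18 of 76 (23.7%) lay lower and 14 of 76 (18.4%) higher in all 5 cilium-guide libraries than in both controls, near the 20.7% and 20.6% of all tested genes on the CPM scale. Rpl28 stood at log2 values of -0.32, -0.24 and -0.33 in Ofd1 CRISPR and -0.44 and -0.35 in Kif3a CRISPR libraries, against -0.01 and -0.09 in GFP control libraries. Rpl4 stood at 1.86, 1.88 and 1.91 in Ofd1 CRISPR and 1.90 and 1.83 in Kif3a CRISPR libraries, against 2.03 and 2.11 in GFP control libraries. Both genes were named for their large decreases in these same values. Their lower place on this scale largely follows from that choice and is no further support. Rps29 stood at 1.56, 1.57 and 1.44 in Ofd1 CRISPR and 1.47 and 1.51 in Kif3a CRISPR libraries, against 1.31 and 1.07 in GFP control libraries.

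The genes with values above 0 were few. Rpl30 rose in Kif3a CRISPR cells (log2 fold change 0.77 ± 0.25, adjusted p = 0.0480, edgeR), but it stood at only 2.33 and 2.695 CPM there and at 2.07, 2.00 and 1.90 CPM in Ofd1 CRISPR libraries, against 1.62 and 1.30 CPM in GFP control libraries, and DESeq2 gave an adjusted p of 0.255. Rps29, a 40S zinc-binding protein, had log2 fold changes of 0.20 ± 0.10 and 0.15 ± 0.11 and Rpl41, the shortest member, 0.14 ± 0.12 and 0.18 ± 0.14, none of them called. Rps29 stood at 1118, 1170 and 1134 CPM in Ofd1 CRISPR and 1016 and 1199 CPM in Kif3a CRISPR libraries, against 1103 and 888 CPM in GFP control libraries. Its controls differed by more than the group means did.

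Differences between libraries of the same group went partly with coding length. Among the 76 genes of at least 10 CPM, the log2 ratio of Kif3a CRISPR 2 over Kif3a CRISPR 1 had a Pearson r of -0.42 (Spearman rho -0.38) with log2 coding length, and that of GFP control 2 over GFP control 1 an r of 0.43 (rho 0.36); both describe 1 pair of libraries. The 3 genes with up to 200 coding bases, Rpl41, Rps29 and Rpl39, had median ratios of 0.24 between the Kif3a CRISPR libraries and -0.31 between the GFP control libraries. The 22 genes over 600 bases had 0.14 and -0.04, and the 30 of over 400 and up to 600 bases 0.24 and -0.07. Length did not order every gene: Rpl39, among the shortest, had 0.11 and 0.08, and Rpl10a, at 651 bases and picked after its values were seen, had 0.45 and -0.21. Log2 fold changes over GFP control had an r of -0.31 (rho -0.16) with log2 length in Ofd1 CRISPR and -0.28 (rho -0.18) in Kif3a CRISPR cells. When trends with transcript length and GC content were removed in each library, 17 genes were lower in Ofd1 CRISPR and 19 in Kif3a CRISPR cells, with medians of -0.12 and -0.10.

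**Figure D5:**
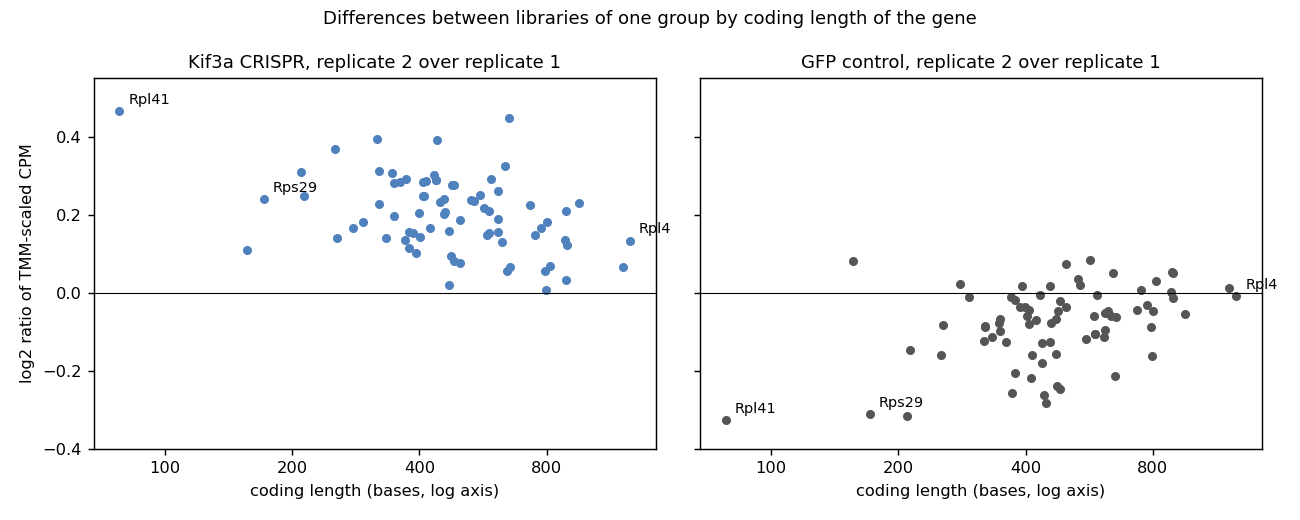
Log2 ratio of TMM-scaled CPM between the 2 Kif3a CRISPR libraries (left) and the 2 GFP control libraries (right) for 76 ribosomal protein genes of at least 10 CPM, against coding length in bases on a log axis. The short genes Rpl41 and Rps29 lie at the top left for Kif3a CRISPR and at the bottom left for GFP control, and the long Rpl4 lies near 0 in the controls.

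Across the 7 libraries most ribosomal protein genes moved together. The log2 CPM of Rpl32, Rpl13a and Rps7 followed the mean of the other tested members most closely (Pearson r = 0.99, 0.98 and 0.98 over 7 libraries, as a description of points that share library and scaling). Rps29 (r = 0.07), Rps27 (r = -0.32) and Rpl30 (r = -0.44) followed it least, and the last 2 of these are among the genes with few counts.

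No ribosomal protein gene was called between Ofd1 CRISPR and Kif3a CRISPR cells. By edgeR, 0 of 79 were higher or lower, where 0.171% of all tested genes were higher, 0.00777% lower and 0.179% either. Unadjusted p was under 0.05 for 0 of 79, against 9.55% of all tested genes, and DESeq2 called 0 (1 at an unadjusted p under 0.05). A negative log2 fold change was found for 31 of 79 (39.2%), against 50.2% of all tested genes. Log2 fold changes of Ofd1 CRISPR over Kif3a CRISPR ran from -0.33 for Rpl30 to 0.14 for Rps10, with a median of 0.01. Rps10 gave 0.14 ± 0.07 (adjusted p = 0.589, edgeR), Rps15 0.11 ± 0.09 (adjusted p = 0.731), Rpl28 0.11 ± 0.09 (adjusted p = 0.741) and Rps24 -0.14 ± 0.09 (adjusted p = 0.655). The absence of calls does not show that the guides act alike, and the median took the other sign without Ofd1 CRISPR 3 (-0.03) or Kif3a CRISPR 1 (-0.08) and was 0.12 without Kif3a CRISPR 2.

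Other genes with a TOP tract or on the ribosome, as a list of 20, had 4 lower (20%) and 0 higher in Ofd1 CRISPR and 7 lower (35%) and 0 higher in Kif3a CRISPR cells by edgeR, against 8.09% and 10.9% of all tested genes lower, with medians of -0.13 and -0.16. Eef2, the translocation factor of elongation, stood at 2840, 2988 and 2864 CPM in Ofd1 CRISPR and 2509 and 2586 CPM in Kif3a CRISPR libraries, against 3369 and 3445 CPM in GFP control libraries (log2 fold change -0.23 ± 0.07 and -0.42 ± 0.07, adjusted p = 0.0328 and 0.00208, edgeR). Eif4b gave -0.22 ± 0.06 and -0.33 ± 0.07, and Tpt1 -0.25 ± 0.07 and -0.29 ± 0.08, all 4 called. The groups did not overlap for any of the 3 genes. Together the 20 took 1.71% ± 0.07 (SD, n = 3) of counts in Ofd1 CRISPR and 1.67% ± 0.04 (SD, n = 2) in Kif3a CRISPR cells, against 1.84% ± 0.03 (SD, n = 2) in GFP control cells.

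The genes that build and regulate ribosomes gave a mixed picture. Over all tested genes, 8.09% were lower and 6.79% higher in Ofd1 CRISPR cells, and 10.9% lower and 9.19% higher in Kif3a CRISPR cells. Of 48 tested assembly factors, 1 rose (2.08%) and 1 fell (2.08%) in Ofd1 CRISPR cells, with a median of -0.01. In Kif3a CRISPR cells, 4 rose (8.33%) and 1 fell (2.08%), with a median of 0.08. Tcof1, which couples transcription and processing of ribosomal RNA, fell under both guides (-0.29 ± 0.07 and -0.38 ± 0.08). Of 37 tested initiation factors, 1 rose (2.7%) and 4 fell (10.8%) in Ofd1 CRISPR cells, with a median of -0.09. In Kif3a CRISPR cells, 0 rose and 3 fell (8.11%), with a median of -0.01. Eif1 stood at -0.48 ± 0.10 and -0.52 ± 0.11 and Eif2s2 at -0.50 ± 0.10 and -0.38 ± 0.12. Of 25 genes of mTORC1, LARP1 and Myc, 4 rose (16%) and 6 fell (24%) in Ofd1 CRISPR cells. In Kif3a CRISPR cells, 4 rose (16%) and 4 fell (16%). Mycn stood at 57.4, 48.7 and 52.2 CPM in Ofd1 CRISPR and 43.4 and 45.1 CPM in Kif3a CRISPR libraries, against 67.2 and 63.1 CPM in GFP control libraries (log2 fold change -0.30 ± 0.08 and -0.56 ± 0.09, adjusted p = 0.0281 and 0.00144, edgeR). Mycl, another Myc family gene, was higher, at 660.3, 551 and 534 CPM in Ofd1 CRISPR and 558 and 535 CPM in Kif3a CRISPR libraries, against 411 and 408 CPM in GFP control libraries (log2 fold change 0.51 ± 0.09 and 0.42 ± 0.10, adjusted p = 0.00348 and 0.0112, edgeR). Max, the partner through which Myc proteins bind DNA, also rose under both guides (0.27 ± 0.07 and 0.31 ± 0.08). Mycl and Max were picked after their values were seen. Sesn2, an inhibitor of mTORC1, fell most in this list, to 20.9, 26.4 and 23.5 CPM in Ofd1 CRISPR and 17.97 and 20.8 CPM in Kif3a CRISPR libraries, against 53.4 and 71.9 CPM in GFP control libraries. Eif4ebp1, a repressor of cap-dependent translation, had log2 fold changes of -1.27 ± 0.19 and -1.57 ± 0.22.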

How the data were processed

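Poly-A RNA of 7 libraries (500 ng of total RNA each, stranded kit, single-end reads of 75 bases, per the labels' protocols) was analysed. The authors deposited raw counts per gene symbol; per the submitters' processing notes, STAR, DESeq2 and mm9 were used, with no version or role stated, and the counter, annotation and strand setting were not given in the sources used here. Totals of 17961767 to 23022701 counts set the precision, and 3 counts in a library correspond to 0.130 to 0.167 CPM. In R 4.3.3, 12875 genes passing filterByExpr were fitted in edgeR 4.0.16 (TMM factors, 1 mean per group, quasi-likelihood F test, 4 residual degrees of freedom, common biological coefficient of variation 7.43%), after tests on simulated data. SE derives from the F statistic. Of 85 members, 79 were tested; 6 with at most 4 counts in a library were not: Rpl26, Rpl3l, Rpl10l, Rpl39l, Rps4l and Rps27rt. Shared windows and coding lengths came from GENCODE M21 on GRCm38. Genes named are the always-named members, the called and extreme ones, the most abundant, and up to 3 called genes per related list. Alternatives were RLE factors, library totals, no filter, DESeq2 1.42.0, 2-group fits, a replicate block, left-out libraries and, chosen after seeing the data, length and GC offsets and member subsets by shared windows or CPM. Members and lists were chosen with earlier results of these data known. P-values measure the spread between these libraries, and replicates differed by more than counting noise. The values of 1 member are not reported here.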

Additional observations from a re-analysis of the deposited data

How the results depend on the processing

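With so few libraries per group, counts of calls depended on the fit more than fold changes did: over the named genes, 1337 recomputed values kept direction and side of the threshold, 57 passed it anew and 80 lost it. Another 101 changed sign, none of them called in either fit and 67 of them between the guides. The offset and the member subsets were chosen after seeing the data. Lower ribosomal protein genes numbered 6 (7.59%, against 8.09% of all genes) in Ofd1 CRISPR and 13 (16.5%, against 10.9%) in Kif3a CRISPR cells. With library totals alone they numbered 3 and 8 (3.8% and 10.1%, against 6.62% and 9.72%). With no filter on low counts they numbered 12 and 16 of 81 (14.8% and 19.8%, against 7.25% and 9.06%). By DESeq2 they numbered 17 and 19 (21.5% and 24.1%, against 7.83% and 9.48%). With only the 2 groups in the fit they numbered 7 and 21 (8.86% and 26.6%, against 7.36% and 15.0%). They numbered 17 and 19 (21.5% and 24.1%, against 10.2% and 12.4% of all genes) with a length and GC offset, and 34 and 25 (43% and 31.6%, against 14.2% and 15.1%) with that offset and the replicate block (3494 and 4184 genes called in all). Leaving out 1 library gave 0 to 20 in Ofd1 CRISPR cells and 0 to 19 in Kif3a CRISPR cells, 664 to 2831 and 686 to 3119 calls over all genes, and medians of -0.151 to -0.0836 and -0.244 to -0.0167; calls between the guides ran from 0 to 50 (median of the members -0.0781 to 0.119). Rpl30, the 1 higher call in Kif3a CRISPR cells, was lost (0 higher) with no filter, by DESeq2 and among genes of at least 10 CPM, and leaving out 1 library gave 0 to 1. The 17 genes with under 50% shared windows held 2 (11.8%) and 4 (23.5%) lower calls, against 8.09% and 10.9% of all genes, and 0 higher. Library totals alone turned the share of higher calls over all genes to 57.5% in Ofd1 CRISPR and 54.3% in Kif3a CRISPR cells, against 45.6% and 45.8% with TMM factors. Between the guides, 80 genes were called with no filter, 86 by DESeq2 and 68 with the offset and block, and the members' median was -0.00634 with the offset.

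Replicate numbers were not taken to pair the libraries, since each pair of groups with GFP control shares only 2 numbers: same-numbered libraries had deviations correlated at 0.146 and 0.153 between Ofd1 CRISPR and GFP control, 0.276 and 0.207 between Ofd1 CRISPR and Kif3a CRISPR, and -0.00102 between Kif3a CRISPR and GFP control. With the replicate block, 25 members (31.6%) were lower in Ofd1 CRISPR and 20 (25.3%) in Kif3a CRISPR cells, against 14.6% of all genes in both, 3496 and 3575 genes were called, and 191 were called between the guides (members' median -0.0304). Without the 5 most abundant members, the set took 3.205% of counts (31829 CPM) in Ofd1 CRISPR and 3.176% (31606 CPM) in Kif3a CRISPR cells, against 3.405% (34635 CPM) in GFP control cells. The cause of these shifts was not tested.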

Other observations

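A few genes that make ribosomal RNA, host its guide RNAs or escort ribosomal proteins were called, most of them higher under the cilium guides. Over all tested genes, 6.79% were higher and 8.09% lower in Ofd1 CRISPR cells, and 9.19% higher and 10.9% lower in Kif3a CRISPR cells. The lists are short, so each share below rests on few called genes. Of 14 tested genes of the RNA polymerase I machinery, 2 rose (14.3%) and 0 fell in Ofd1 CRISPR cells. In Kif3a CRISPR cells, 3 rose (21.4%) and 0 fell. The median log2 fold changes were 0.05 in Ofd1 CRISPR and 0.09 in Kif3a CRISPR cells. Taf1c, a subunit of the polymerase I selectivity factor, stood at 42.3, 39.7 and 32.9 CPM in Ofd1 CRISPR and 40.3 and 38.9 CPM in Kif3a CRISPR libraries, against 27.3 and 26.8 CPM in GFP control libraries (0.50 ± 0.10 and 0.55 ± 0.11, adjusted p = 0.00829 and 0.00542, edgeR). Of 10 tested small nucleolar RNA host genes, which also carry pyrimidine tracts, 1 rose (10%) and 1 fell (10%) in Ofd1 CRISPR cells. In Kif3a CRISPR cells, 3 rose (30%) and 0 fell. The medians were 0.03 in Ofd1 CRISPR and 0.24 in Kif3a CRISPR cells. Snhg1 stood at 57.9, 70.6 and 68.7 CPM in Ofd1 CRISPR and 80.7 and 81.2 CPM in Kif3a CRISPR libraries, against 61.5 and 64.4 CPM in GFP control libraries, and rose in Kif3a CRISPR cells (0.36 ± 0.10, adjusted p = 0.0199, edgeR). Of 13 tested chaperones of ribosomal proteins, 2 rose (15.4%) and 1 fell (7.69%) in Ofd1 CRISPR cells. In Kif3a CRISPR cells, 2 rose (15.4%) and 0 fell. Bccip, whose yeast counterpart is a chaperone of Rpl23, rose under both guides (0.24 ± 0.07 and 0.37 ± 0.07). Differences between these lists and the ribosomal protein genes were not tested.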
